A study of Mus musculus with 32 samples.

Results

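The genes described here encode the nuclear subunits of respiratory complexes II, III, IV and V, measured in the frontal cortex (FCtx) of ethanol-drinking and control mice. They were taken as the probes whose gene symbol in the table is Sdha to Sdhd, Cyc1 or begins with Uqcr, Cox4 to Cox8 or Atp5, which gave 52 of the 25697 probes of the array and 43 of its 18138 symbols. Complex II had 6 probes, complex III 7, complex IV 21 and complex V 18. The name rule also took in 4 genes that are not subunits of the assembled enzymes: Cox4nb, an older symbol of the endoplasmic reticulum protein Emc8, Atp5sl, an assembly factor now called Dmac2, Atp5s, the coupling factor B, and Cox7a2l, which joins complexes III and IV into supercomplexes. No probe carried the symbol Sdha, Cox7c, Cox8a or Atp5g1, so these genes are absent from the counts.

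The arrays held FCtx from 32 female hybrid mice, 20 treated with ethanol and 12 untreated controls, 1 mouse per array, and both groups carried the C57BL/6J by FVB/NJ F1 background in the labels (the Methods name both directions of the cross). The treated mice chose between water and 20% ethanol in daily 3 h sessions for 20 days and were sacrificed 20 h after the last session, and the age of the mice is not given in the sources used here. Of the 4 chips with 8 arrays each, chips 1 and 2 held ethanol-treated mice only, chip 4 held controls only, and chip 3 was shared, with 4 ethanol-treated mice on its odd positions (A, C, E, G) and 4 controls on its even positions (B, D, F, H). Chip and treatment therefore cannot be told apart outside chip 3, and position and treatment cannot be told apart on it. Between 9480 and 11544 probes were detected per array, the fewest on that of control C66, and pairs of arrays correlated between 0.972 and 0.994.

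Complex II oxidizes succinate in the citric acid cycle, complexes II and III pass electrons by way of ubiquinone to cytochrome c, and complex IV hands them to oxygen. Complexes III and IV pump protons across the inner mitochondrial membrane, and complex V, the ATP synthase, lets them flow back and makes ATP. Neurons draw most of their ATP from this chain. The catalytic core of complex IV and the proton channel subunit of complex V are encoded by mitochondrial DNA and are outside the name rule. The complex IV subunits described here are therefore the nuclear ones that surround the core. Counts and means of complex IV also include Cox4nb and Cox7a2l, and those of complex V include Atp5s and Atp5sl.

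Each gene was read by probes of 50 bases, and the probes on which the results turn are shown because their place in the transcript decides what was measured. Capitals mark the stretch that 2 probes of the same gene have in common.
Atp5o, probe ILMN_2917540: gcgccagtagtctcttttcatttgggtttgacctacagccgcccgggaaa
Atp5d, probe ILMN_1254705: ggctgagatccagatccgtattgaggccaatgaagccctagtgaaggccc
Atp5c1, probe ILMN_1249783: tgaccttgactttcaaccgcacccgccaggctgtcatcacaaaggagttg
Uqcr, probe ILMN_2871881: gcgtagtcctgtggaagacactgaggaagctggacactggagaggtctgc
Uqcrc1, probe ILMN_1256673: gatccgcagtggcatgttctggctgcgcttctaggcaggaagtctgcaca
Cox5a, probe ILMN_2682800: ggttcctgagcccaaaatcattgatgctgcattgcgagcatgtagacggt
Cox6b1, probe ILMN_2616405: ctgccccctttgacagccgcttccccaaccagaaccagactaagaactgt
Cox6b1, probe ILMN_1254971: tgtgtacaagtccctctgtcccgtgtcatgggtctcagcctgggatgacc
Cox6a1, probe ILMN_2605400: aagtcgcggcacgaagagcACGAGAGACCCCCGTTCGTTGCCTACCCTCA
Cox6a1, probe ILMN_2638875: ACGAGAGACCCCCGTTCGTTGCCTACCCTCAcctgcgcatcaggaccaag
Sdhb, probe ILMN_2769064: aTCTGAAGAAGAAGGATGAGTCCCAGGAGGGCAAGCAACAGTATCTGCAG
Sdhb, probe ILMN_2769065: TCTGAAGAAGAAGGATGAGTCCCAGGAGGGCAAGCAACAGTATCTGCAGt
The probes of Sdhb have 49 bases in common and those of Cox6a1 31, whereas the 2 probes of Cox6b1 lie apart in the same transcript, at positions 150 and 286. Each of the 12 sequences occurs once in the table.

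Promoters of 32 of the 43 genes were found in RefSeq (build GRCm38.p6), each 250 bases before and 50 after the transcript start. Those of Atp5a1, Cox4i1, Cox4i2, Cox4nb, Cox6a2, Cox6c, Cox8c, Cyc1, Sdhc, Uqcrc2 and Uqcrq were not matched. They were searched on both strands for the letters of 5 sites described in promoters of respiratory genes. GCGCATGC, the core of an NRF1 site, was in the promoters of 7 of the 32 genes (21.9%) and of 824 of all 27025 genes (3.0%). CCGGAAG, an ETS site of the kind bound by GABP, was in those of 11 (34.4%), against 9.9% of all genes. AAGATGGCG, a YY1 site, was in those of 3 (9.4%, against 1.6%), TCAAGGTCA, an ERR site, in those of 2 (6.2%, against 0.5%), and GGGCGG, an Sp1 site, in those of 14 (43.8%, against 38.2%). Among the genes whose probes were lower in ethanol-treated mice at a false discovery rate (FDR) below 10%, 2 of 10 held the NRF1 letters and 4 the ETS letters, and among the other 17 tested genes 4 and 6 did. The promoters of the 4 lower genes with the ETS letters, all of complexes III and IV, are printed with every match in capitals. Of the lower genes not printed, Atp5o, Atp5d and Cox5b held none of the 5 sites. Cox5a and Cox7a2 held only the Sp1 letters and Atp5j2 only the YY1 letters. In Cox6a1 the NRF1 letters of both strands overlap.
Uqcr (Uqcr11 in RefSeq), chr10:80406772-80407071, minus strand: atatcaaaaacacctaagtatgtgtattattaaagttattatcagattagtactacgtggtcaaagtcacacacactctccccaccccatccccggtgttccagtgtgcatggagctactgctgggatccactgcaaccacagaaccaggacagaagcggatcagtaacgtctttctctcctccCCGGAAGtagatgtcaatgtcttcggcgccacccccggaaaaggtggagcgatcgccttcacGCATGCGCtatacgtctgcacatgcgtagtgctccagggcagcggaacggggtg
Uqcrh, chr4:116075021-116075320, minus strand: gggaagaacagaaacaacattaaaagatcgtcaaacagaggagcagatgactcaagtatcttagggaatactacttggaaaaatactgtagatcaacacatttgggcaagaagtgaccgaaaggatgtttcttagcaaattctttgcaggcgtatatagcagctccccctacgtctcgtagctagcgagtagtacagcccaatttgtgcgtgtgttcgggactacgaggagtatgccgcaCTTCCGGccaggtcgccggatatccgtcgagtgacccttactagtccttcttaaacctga
Cox6a1, chr5:115348909-115349208, minus strand: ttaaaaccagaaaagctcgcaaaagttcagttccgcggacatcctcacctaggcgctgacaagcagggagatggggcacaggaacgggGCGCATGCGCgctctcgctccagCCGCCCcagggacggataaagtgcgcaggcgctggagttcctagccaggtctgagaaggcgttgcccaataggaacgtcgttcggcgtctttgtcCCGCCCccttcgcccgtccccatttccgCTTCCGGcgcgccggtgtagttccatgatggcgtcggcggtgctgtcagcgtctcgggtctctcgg
Cox6b1, chr7:30626065-30626364, minus strand: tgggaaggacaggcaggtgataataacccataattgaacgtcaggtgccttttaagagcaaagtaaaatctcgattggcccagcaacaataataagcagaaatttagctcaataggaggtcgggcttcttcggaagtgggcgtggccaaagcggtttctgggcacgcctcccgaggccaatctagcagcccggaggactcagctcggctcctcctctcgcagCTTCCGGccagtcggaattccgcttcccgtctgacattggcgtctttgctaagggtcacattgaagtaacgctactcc

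The 40 probes (35 genes) that were detected on at least 24 of the 32 arrays, at a detection p-value below 0.01, entered the comparison, and 12 probes did not. The 12 were those of Uqcrfs1, the Rieske iron-sulfur protein of complex III, Uqcrq, the isoforms Cox4i2, Cox6b2 (2 probes), Cox7b2, Cox8b and Cox8c, and Atp5k, besides 1 probe each of Sdhb, Sdhc and Atp5j, whose other probes were detected. Of these, 10 were detected on 0 arrays, Cox8b on 2 and 1 probe of Cox6b2 on 7, and their mean signals lay between 147 and 182. The tested probes ranged from a mean signal of 248 for Cox7b to 25640 for Atp5b. Values are given after a variance-stabilizing transform and quantile normalization, on a log2 scale, and a difference is the mean of ethanol-treated mice minus that of controls.

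With all 32 arrays, 5 of the 40 probes were lower in ethanol-treated mice at an FDR below 1% by limma and 0 were higher, where 4.52% of the 10187 tested probes were lower and 3.70% higher. At the wider level of 10%, 13 were lower and 0 higher, against 13.5% and 12.1% of all tested probes. In all, 31 of the 40 probes (77.5%) had a difference below 0, beside 51.6% of all tested probes, and the median difference was -0.07 beside -0.0036. When the values were scaled to a common median in place of quantile normalization, 0 members were called, and 0.128% of all probes were lower and 1.55% higher. The SD between mice of a group had a median of 0.119 over the members. In tissue RNA, fewer cells of a type and less RNA per cell cannot be told apart.

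**Figure D1:**
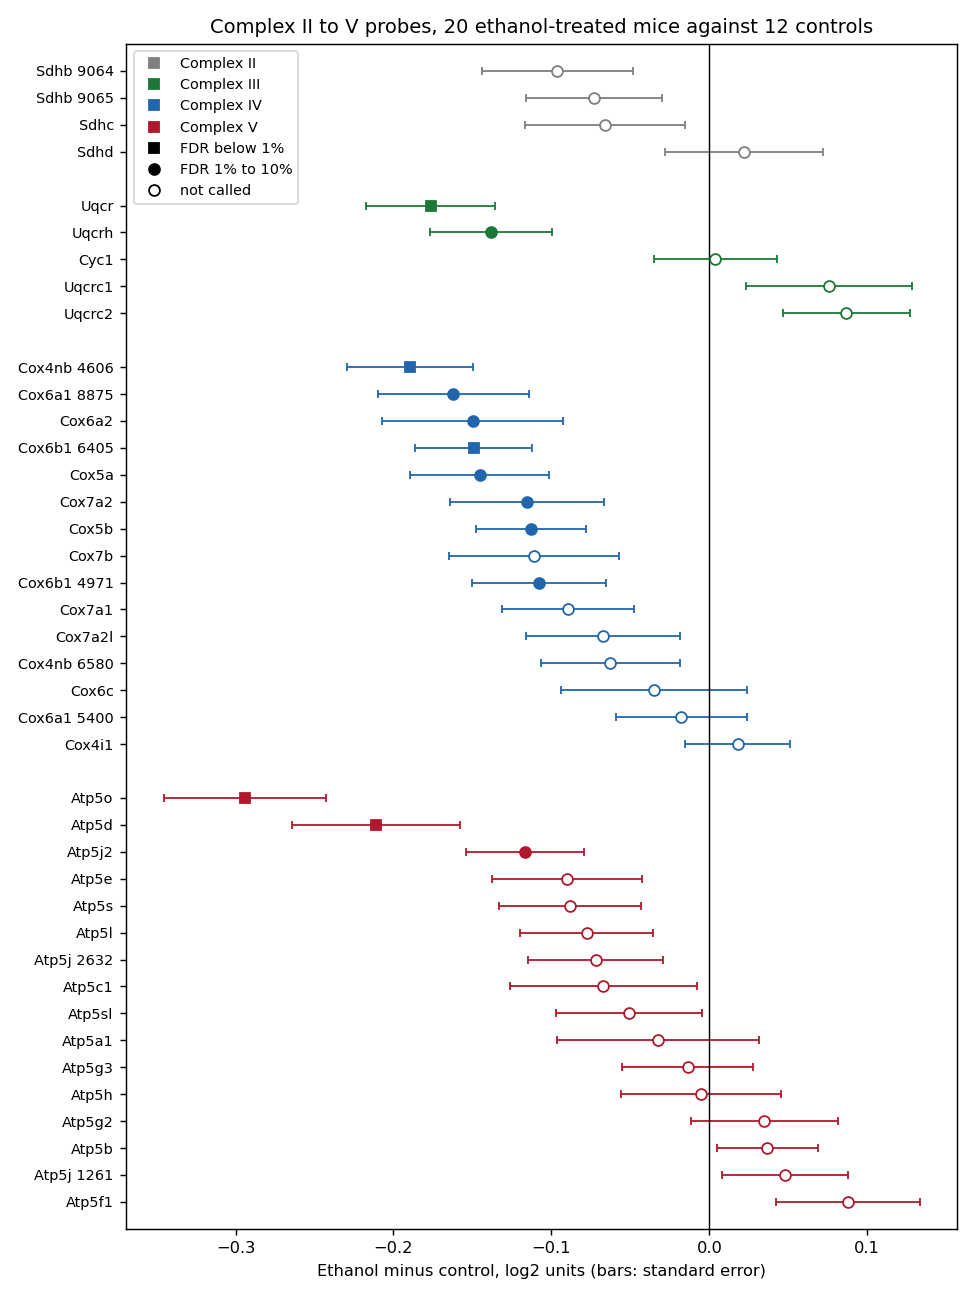
Differences between 20 ethanol-treated mice and 12 controls for the 40 tested probes (x axis, log2 units, with standard errors from limma), grouped by complex. Filled squares had an FDR below 1% (5 probes), filled circles between 1% and 10% (8 probes) and open circles were not called, and 14 of the 15 probes of complex IV lay below 0. The digits after a gene with several probes are the last of the probe's number.

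In complex II, 0 of the 4 tested probes were called in either direction at either level. The probe ILMN_2769065 of Sdhb, the iron-sulfur subunit that takes electrons from the flavin subunit, ranged from 10.58 to 10.91 in ethanol-treated mice (median 10.73) and from 10.64 to 11.12 in controls (median 10.80), a difference of -0.07 (standard error 0.04, adjusted p = 0.242 by limma). Its neighbour ILMN_2769064, which shares 49 of its 50 bases, gave -0.10 (standard error 0.05, adjusted p = 0.159), with 17 of 20 ethanol-treated mice below the median of the controls. Sdhc and Sdhd anchor the complex in the membrane, and their differences were -0.07 (adjusted p = 0.389) and 0.02 (adjusted p = 0.802).

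In complex III, 1 of the 5 tested probes was lower at the 1% level and 2 at the 10% level, with 0 higher, beside the 4.52% and 13.5% of all tested probes that were lower. Uqcr, a small accessory subunit now called Uqcr11, ranged from 12.68 to 12.94 in ethanol-treated mice (median 12.80) and from 12.72 to 13.15 in controls (median 13.01). All 20 ethanol-treated mice lay below the median of the controls, and the difference was -0.18 (standard error 0.04, adjusted p = 0.00276 by limma). Uqcrh, the hinge protein at which cytochrome c docks, ranged from 13.002 to 13.368 (median 13.23) and from 13.22 to 13.48 (median 13.34), a difference of -0.14 (standard error 0.04, adjusted p = 0.0104), just outside the 1% level. The core proteins were not called with 32 arrays, at 0.08 for Uqcrc1 (standard error 0.05, adjusted p = 0.332) and 0.09 for Uqcrc2 (standard error 0.04, adjusted p = 0.127). Cyc1, the cytochrome c1 that passes electrons on to cytochrome c, had a difference of 0.00 (standard error 0.04, adjusted p = 0.961).

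Complex IV held most of the probes called at the wider level, 8 of 15 lower and 0 higher, 2 of them at an FDR below 1%, with a median difference of -0.11, where 13.5% of all tested probes were lower at the wider level and 4.52% at 1%. The 2 called at 1% were a probe of Cox6b1, a subunit on the intermembrane side, and a probe of Cox4nb, which is not a subunit. Probe ILMN_2616405 of Cox6b1 ranged from 12.48 to 12.86 in ethanol-treated mice (median 12.67) and from 12.73 to 12.94 in controls (median 12.80), a difference of -0.15 (standard error 0.04, adjusted p = 0.00456 by limma), and 19 of 20 treated mice were below the control median. Its brighter probe ILMN_1254971 gave -0.11 (standard error 0.04, adjusted p = 0.0691), with all 20 below that median. The groups overlapped for both probes.

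Cox5a and Cox5b, which sit on the matrix side of complex IV, had differences of -0.15 (standard error 0.04, adjusted p = 0.0176 by limma) and -0.11 (standard error 0.03, adjusted p = 0.0201). Cox5a ranged from 12.69 to 13.06 in ethanol-treated mice (median 12.81) and from 12.72 to 13.19 in controls (median 12.98), and Cox5b from 13.38 to 13.67 (median 13.51) and from 13.48 to 13.72 (median 13.63). The ranges overlapped, although 19 and 18 of the 20 ethanol-treated mice lay below the control median. Cox4i1, the largest nuclear subunit and the site of regulation by ATP, did not follow them, with 13.67 ± 0.06 (SD, n = 20) against 13.65 ± 0.10 (SD, n = 12) and a difference of 0.02 (adjusted p = 0.754 by limma).

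Several subunits of complex IV come in isoforms, of which one is typical of heart and muscle. Both isoforms of Cox6a were detected, and the muscle isoform Cox6a2 was dim and had a difference of -0.15 (standard error 0.06, adjusted p = 0.0618 by limma). Of the widespread isoform Cox6a1, the 2 overlapping probes printed above disagreed in call. Probe ILMN_2638875, the brighter, averaged 13.56 ± 0.13 (SD, n = 20) and 13.72 ± 0.14 (SD, n = 12), a difference of -0.16 (standard error 0.05, adjusted p = 0.0152), whereas ILMN_2605400 averaged 13.16 ± 0.12 and 13.18 ± 0.09, a difference of -0.02 (standard error 0.04, adjusted p = 0.807). The widespread Cox7a2 gave -0.12 (adjusted p = 0.0929), the muscle isoform Cox7a1 -0.09 (adjusted p = 0.131) and the supercomplex factor Cox7a2l -0.07 (adjusted p = 0.351). The membrane-spanning subunits Cox7b and Cox6c had differences of -0.11 (adjusted p = 0.146) and -0.04 (adjusted p = 0.723). Cox4nb differed by -0.19 with probe ILMN_2644606 (standard error 0.04, adjusted p = 0.00119) and by -0.06 with ILMN_2766580 (adjusted p = 0.34).

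Complex V consists of a catalytic head (F1), a rotor with its central stalk, and a peripheral stalk that holds the head in place. The lowest adjusted p of all members was that of Atp5o, the subunit (OSCP) that ties the peripheral stalk to the head. Atp5o ranged from 9.09 to 9.57 in ethanol-treated mice (median 9.33) and from 9.42 to 9.90 in controls (median 9.58), and fell by 0.29 on the log2 scale (standard error 0.05, adjusted p = 2e-04 by limma). All 20 ethanol-treated mice lay below the median of the controls and the ranges overlapped. Atp5d, the delta subunit of the central stalk, ranged from 11.16 to 11.71 (median 11.49) and from 11.46 to 11.90 (median 11.74), a difference of -0.21 (standard error 0.05, adjusted p = 0.00505). Without control C66 its adjusted p was 0.0101 and 4 members passed an FDR of 1%, with no share of all tested probes given here.

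The alpha, beta and gamma subunits of the head and its shaft were not called with 32 arrays. Atp5b, the beta subunit that carries the catalytic sites, averaged 14.64 ± 0.06 (SD, n = 20) against 14.60 ± 0.07 (SD, n = 12), a difference of 0.04 (standard error 0.03, adjusted p = 0.452 by limma), and Atp5a1, the alpha subunit, differed by -0.03 (adjusted p = 0.769). Atp5c1, the gamma subunit that turns inside the head, differed by -0.07 (standard error 0.06, adjusted p = 0.46). Of the isoforms of the rotor ring, Atp5g2 had a difference of 0.03 (adjusted p = 0.649) and Atp5g3 one of -0.01 (adjusted p = 0.854). Atp5j2, the membrane subunit f, was lower by an FDR below 10%, at 13.58 ± 0.09 (SD, n = 20) and 13.70 ± 0.10 (SD, n = 12), a difference of -0.12 (adjusted p = 0.0253), and Atp5f1, the b subunit of the peripheral stalk, differed by 0.09 (adjusted p = 0.179). Of the 16 tested probes of complex V, 3 were lower at an FDR below 10% and 0 higher, a share near the 13.5% of all tested probes that were lower.

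The comparison was next taken apart by chip, because 16 of the 20 ethanol-treated mice and 8 of the 12 controls shared no chip with the other group. When the ethanol-treated mice of chips 1 and 2 were set against the controls of chip 4, with odd or even position as a covariate, 18 of the 40 probes were lower and 3 higher at an FDR below 10% by limma, against 18.1% and 16.6% of all tested probes. Complex IV had 10 of its 15 probes lower and complex V 4 of 16. Uqcr averaged 13.07 ± 0.07 (SD, n = 8) on chip 4 against 12.74 ± 0.05 (SD, n = 8) at the odd and 12.86 ± 0.07 (SD, n = 8) at the even positions of chips 1 and 2, with no overlap, and the difference was -0.27 (standard error 0.04, adjusted p = 1.61e-05). Atp5o differed by -0.33 (adjusted p = 3.11e-05) and Cox5a by -0.21 (adjusted p = 0.0022). The core protein Uqcrc1 went the other way, at 0.19 (standard error 0.04, adjusted p = 0.00106). With median scaling, which moved the median of all probes by 0.0931, 1 member was lower and 3 were higher. No share of all tested probes is given for that scaling, so the change cannot be read as particular to the members.

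The controls themselves differed between the chips. Uqcr averaged 12.81 ± 0.07 (SD, n = 4) in the controls of chip 3 and 13.07 ± 0.07 (SD, n = 8) in those of chip 4, and their ranges, 12.72 to 12.86 and 12.95 to 13.15, did not overlap. For 26 of the 40 members the mean of the controls was higher on chip 4 than on chip 3 (65% against 51.9% of all tested probes). Of the 5 sets of arrays with the same treatment and chip, the controls of chip 4 had the highest mean for 20 of the 40 members (50%). Among them were 9 of the 15 probes of complex IV, and 27.1% of all tested probes were highest there. On chip 3 controls were at even and ethanol-treated mice at odd positions only, whereas the other chips held both. These counts therefore mix chip with position.

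**Figure D2:**
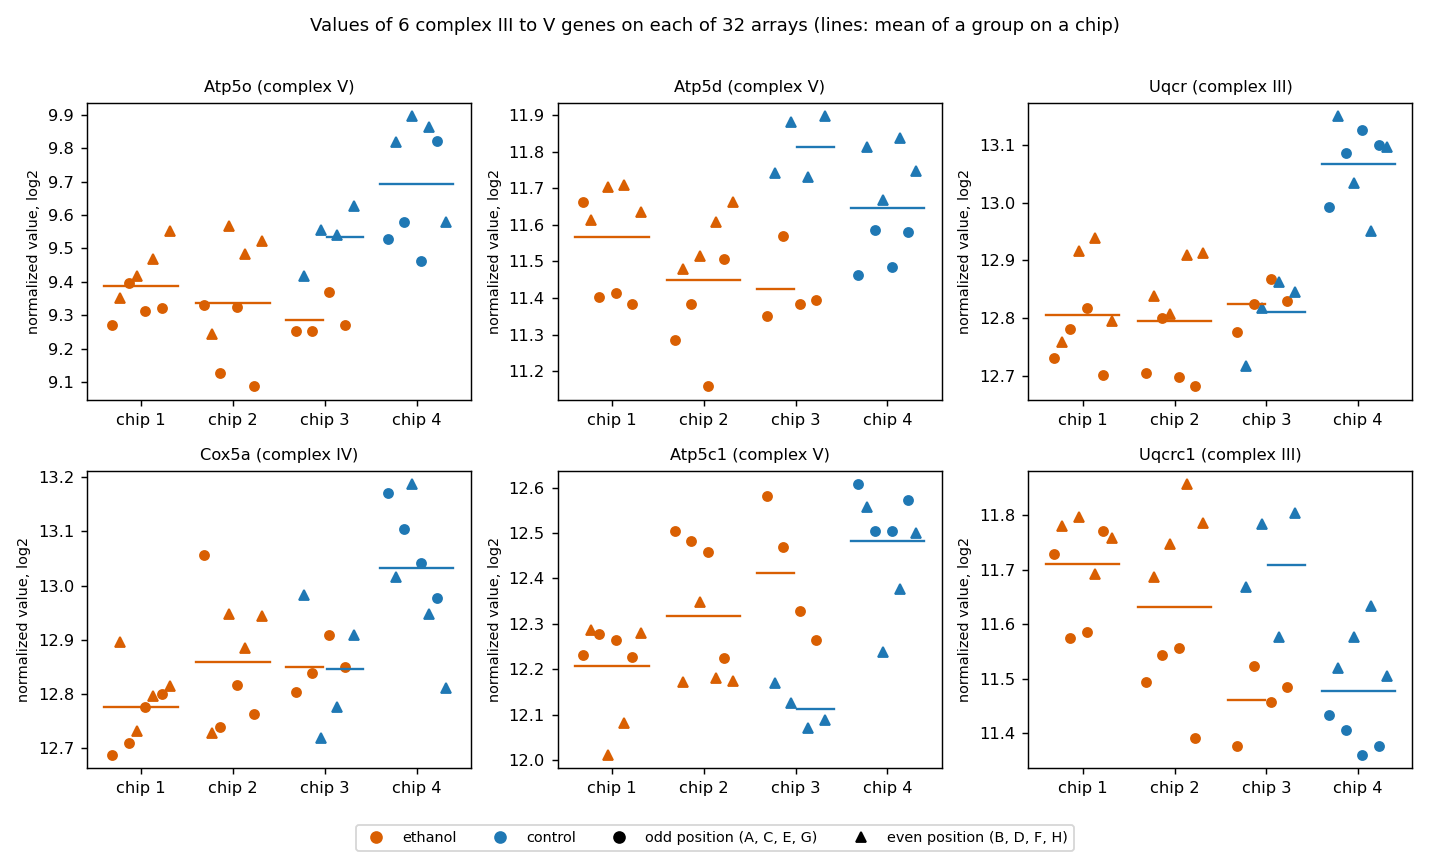
Normalized values (y axes, log2) of 6 genes on each of the 32 arrays, by chip, with orange for ethanol and blue for controls, circles for odd and triangles for even positions, and lines at the mean of a group on a chip. Uqcr was apart on chip 4 only, whereas Atp5d and Atp5o were lower at odd than at even positions on the chips that held 1 treatment as well.

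On chip 3, where both groups were hybridized together, 5 of the 40 probes were lower and 1 was higher at an FDR below 10% by limma, against 8.30% and 7.88% of all tested probes. The groups did not overlap for 6 probes that were lower in all 4 ethanol-treated mice (15%) and 3 that were higher (7.5%), where 7.58% of all tested probes did so in each direction. Without control C54, 3 members were called. No share of all tested probes is given for that fit, so the drop cannot be read as particular to the members. Of the 40 probes, 21 had a difference below 0 on chip 3 (52.5%, against 50.3% of all tested probes), with a median of -0.03.

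Atp5d had the largest difference on chip 3. It stood at 11.35, 11.57, 11.38 and 11.40 in the ethanol-treated mice A46, A47, A49 and A50 and at 11.74, 11.88, 11.73 and 11.90 in the controls C52, C54, C55 and C56, with no overlap and a difference of -0.39 (standard error 0.07, adjusted p = 0.00286 by limma). Atp5o stood at 9.25, 9.25, 9.37 and 9.27 against 9.42, 9.56, 9.54 and 9.63, again with no overlap, a difference of -0.25 (standard error 0.07, adjusted p = 0.0293). These 2 subunits of complex V were the members called at an FDR below 1% with 32 arrays that were also called on chip 3. When all 32 arrays were fitted with chip as a fixed block, Atp5d passed an FDR of 10% and Atp5o did not.

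Of the other members called on chip 3, Uqcrc1 stood at 11.38, 11.52, 11.46 and 11.49 in ethanol-treated mice and at 11.67, 11.78, 11.58 and 11.80 in controls, a difference of -0.25 (standard error 0.07, adjusted p = 0.0345 by limma), opposite in sign to its difference between chips. Atp5c1 was the member that rose, at 12.58, 12.47, 12.33 and 12.27 against 12.17, 12.13, 12.07 and 12.09, a difference of 0.30 (standard error 0.07, adjusted p = 0.0184), and it too had the opposite sign between chips, with -0.22 (adjusted p = 0.00172). Both genes had groups that did not overlap on chip 3. Probe ILMN_2638875 of Cox6a1 had a difference of -0.19 (standard error 0.07, adjusted p = 0.0641), and Atp5s, the coupling factor B, had -0.20 (standard error 0.06, adjusted p = 0.0602). Uqcr, called with 32 arrays, stood at 12.78, 12.83, 12.87 and 12.83 in ethanol-treated mice and at 12.72, 12.82, 12.86 and 12.85 in controls of chip 3, a difference of 0.01 (standard error 0.07, adjusted p = 0.923). Probe ILMN_2616405 of Cox6b1 and probe ILMN_2644606 of Cox4nb had differences of -0.05 (adjusted p = 0.665) and -0.02 (adjusted p = 0.895) there. The brighter probe ILMN_1254971 of Cox6b1 had the opposite sign on chip 3, at 0.11 (adjusted p = 0.281).

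Since ethanol-treated mice were at odd and controls at even positions of chip 3, the same members were compared by position alone, 12 odd against 12 even, on chips 1, 2 and 4, each of which held a single treatment. At an FDR below 10% by limma, 9 members were lower and 4 higher at odd positions, against 9.97% and 10.2% of all tested probes. Of the 6 members called on chip 3, 5 were called here with the same sign. The odd minus even difference of Atp5d was -0.22 (standard error 0.04, adjusted p = 0.00183), that of Atp5o -0.18 (standard error 0.05, adjusted p = 0.0159), that of probe ILMN_2638875 of Cox6a1 -0.20 (adjusted p = 0.00967), that of Uqcrc1 -0.18 (adjusted p = 0.00439) and that of Atp5c1 0.14 (adjusted p = 0.0417). Atp5s was the exception, with 0.00 (standard error 0.05, adjusted p = 0.984). Across the 40 probes, which are not independent, the differences on chip 3 correlated at 0.702 (Pearson) with the position differences and at -0.0922 with the differences between chips 1 and 2 and chip 4, beside 0.566 and 0.0905 across all tested probes. Chip 3 contributed no array to either of these comparisons.

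**Figure D3:**
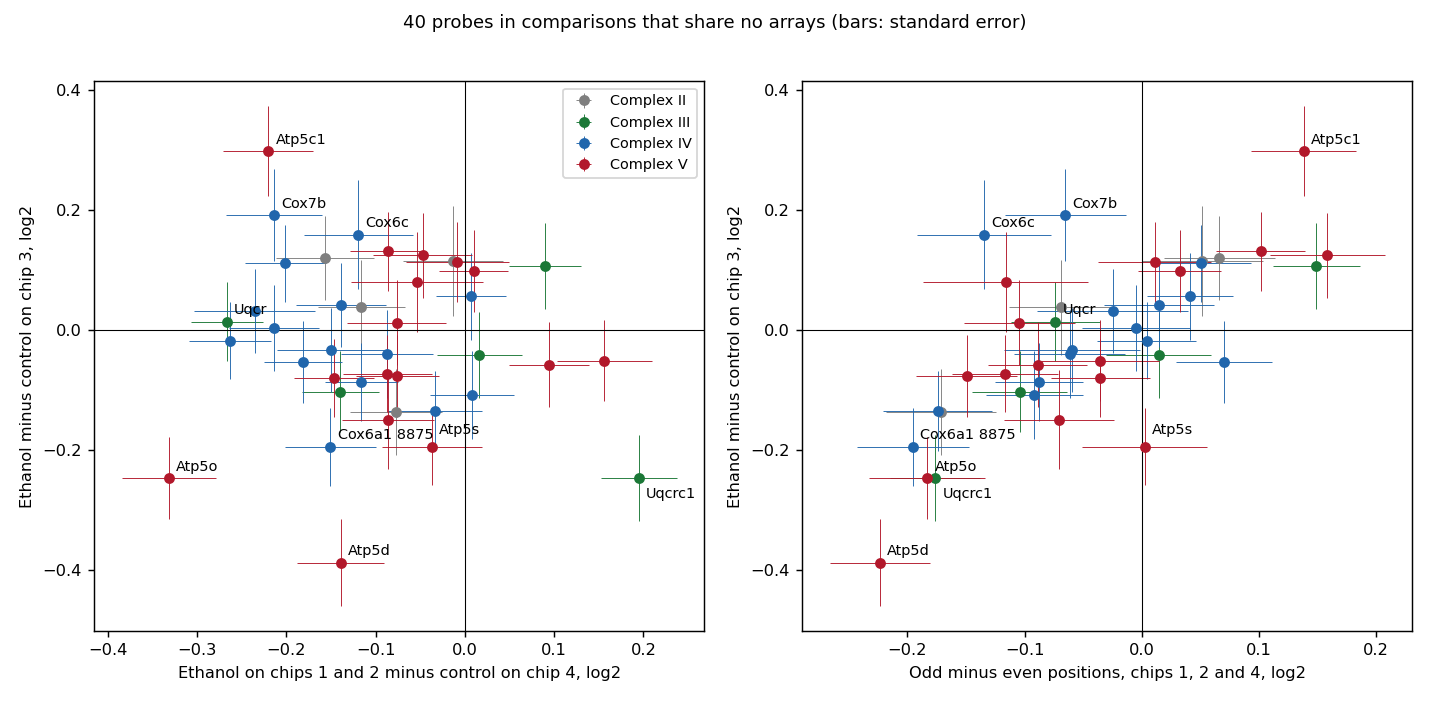
Differences on chip 3 (y axes, log2, 4 ethanol-treated mice minus 4 controls) against those between ethanol on chips 1 and 2 and controls on chip 4 (left) and by position, odd minus even, on chips 1, 2 and 4 (right) for the 40 probes, with standard errors. On the right, Atp5d, Atp5o, Uqcrc1 and Cox6a1 lay at the lower left and Atp5c1 at the upper right, and on the left Uqcrc1 and Atp5c1 had opposite signs in the 2 comparisons.

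Between chips 1 and 2, both of ethanol-treated mice, 0 members were called in either direction at an FDR below 10% by limma, against 1.52% and 2.14% of all tested probes. With median scaling, which moved the median of all probes by -0.1027 here, 14 members were lower on chip 1. The share of all tested probes called with that scaling is not given here. When chip entered as a fixed block, only chip 3 informed on ethanol. Then 0 members passed the 1% level and 3 the 10% level, with 7 at an unadjusted p below 0.05. The 3 were Atp5d, Atp5c1 and Uqcrc1 (adjusted p = 0.0246, 0.0493 and 0.0879 by limma). Atp5o, probe ILMN_2638875 of Cox6a1 and Atp5s, called on chip 3 fitted alone, did not pass (adjusted p = 0.141, 0.249 and 0.192). With odd or even position added to the chips, 0 members passed an FDR of 10%, 2 had an unadjusted p below 0.05, 13 of the 40 differences were below 0, and the differences of Atp5o and Atp5d were -0.06 (adjusted p = 0.874) and -0.16 (adjusted p = 0.539). Over all 10187 tested probes these 2 fits called 17 and 2 probes at an FDR below 1%, and 627 and 7 at 10%. With chip as a random block, Atp5o was the member that passed an FDR of 1% (adjusted p = 0.00852), beside 85 of all tested probes.

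The difference on chip 3 was then compared with the difference between chips at the same positions (ethanol at odd positions of chips 1 and 2 minus controls at even positions of chip 4). At an FDR below 10% by limma the chip 3 difference was higher for 5 members and lower for 1, against 2.97% and 2.36% of all tested probes. For Uqcr it was higher by 0.33 (standard error 0.08, adjusted p = 0.0217), for Cox7b by 0.47 (standard error 0.12, adjusted p = 0.0273), for Atp5c1 by 0.38 (standard error 0.11, adjusted p = 0.0479), for Cox6c by 0.42 (adjusted p = 0.0849) and for probe ILMN_1254971 of Cox6b1 by 0.27 (adjusted p = 0.0983), and for Uqcrc1 it was lower, at -0.27 (adjusted p = 0.0983). Cox7b stood at 8.05 ± 0.12 (SD, n = 4) in treated mice and 7.86 ± 0.11 (SD, n = 4) in controls on chip 3, whereas it averaged 7.78 ± 0.10 (SD, n = 8) at odd positions of chips 1 and 2 and 8.06 ± 0.16 (SD, n = 4) at even positions of chip 4. With median scaling, which moved the median of all probes by -0.1788 in this comparison, 0 members were called, and with normexp background, or with every probe kept, 3 were. Atp5o and Atp5d did not pass, with 0.27 (adjusted p = 0.179) and -0.02 (adjusted p = 0.94).

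For a level of each complex on an array, the centred values of its tested genes were averaged, which gives a description with no test. The mean of the 12 complex IV genes was -0.040 ± 0.046 (SD, n = 20) in treated mice and 0.066 ± 0.061 (SD, n = 12) in controls on the log2 scale. It lay between 0.062 and 0.164 on all 8 arrays of chip 4, and at or below 0.028 on each of the other 24 arrays. On chip 3 it averaged 0.006 ± 0.016 (SD, n = 4) in treated mice and -0.005 ± 0.021 (SD, n = 4) in controls. The 15 genes of complex V averaged -0.024 ± 0.044 and 0.040 ± 0.040 over the 32 arrays, and on chip 3 the 4 ethanol-treated mice, between -0.031 and -0.017, lay below the 4 controls, between -0.005 and 0.020. On chips 1, 2 and 4 the complex V mean was -0.017 ± 0.055 (SD, n = 12) at odd and 0.023 ± 0.060 (SD, n = 12) at even positions. Complex III had means of -0.011 ± 0.046 and 0.019 ± 0.035, and complex II of -0.015 ± 0.074 and 0.024 ± 0.097, and the groups overlapped in both.

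**Figure D4:**
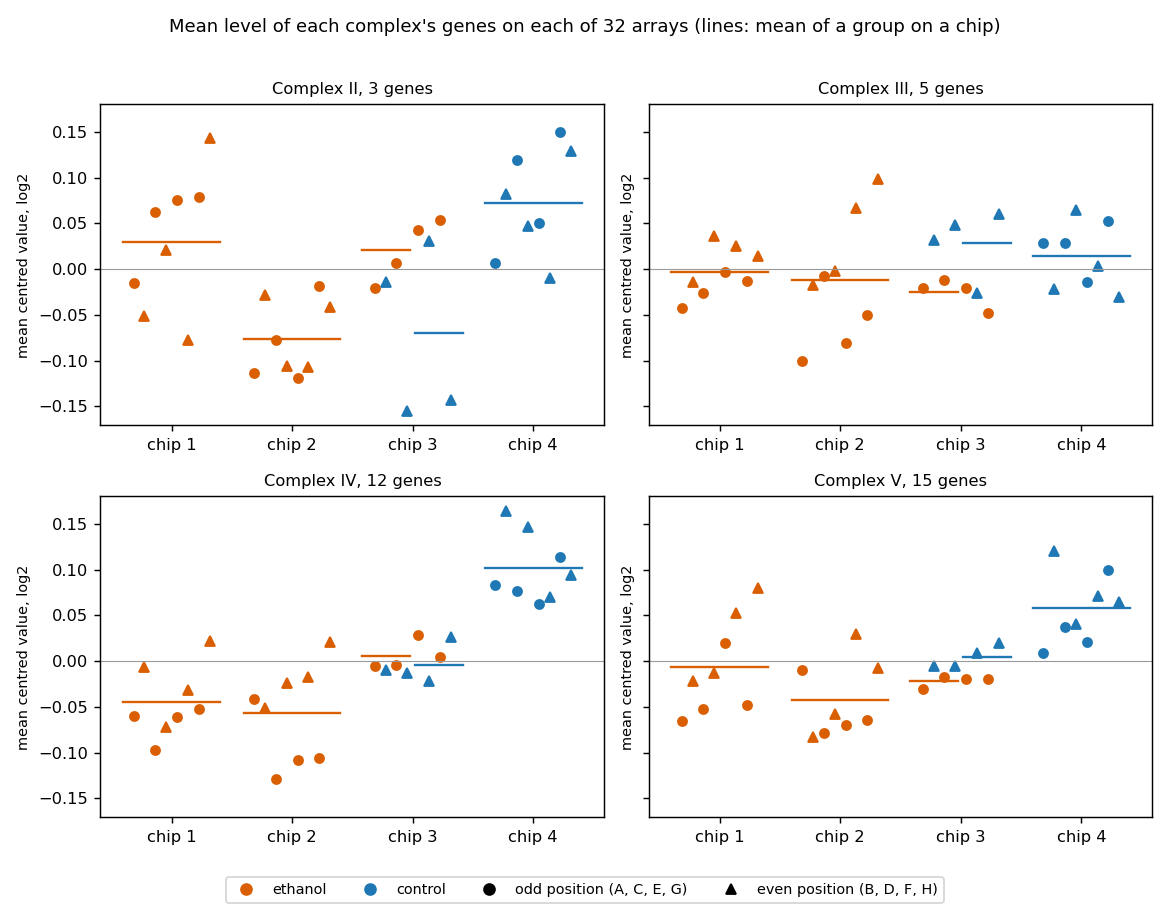
Mean of the centred log2 values (y axes) of the tested genes of each complex on each of the 32 arrays, by chip, with orange for ethanol and blue for controls, circles for odd and triangles for even positions, and lines at the mean of a group on a chip. The complex IV genes stood at 0.062 or above on all arrays of chip 4 and close to 0 in both groups on chip 3.

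Other genes of the pathway were counted in the same fit. Of 39 probes of complex I, which feeds electrons from NADH into the chain, 15 were lower and 2 higher at an FDR below 10% by limma with 32 arrays, and 35 had a difference below 0 (89.7%), where 13.5% of all tested probes were lower and 12.1% higher. Of these, Ndufs3, a core subunit, differed by -0.21 (adjusted p = 0.000428), and on chip 3 by -0.20 (adjusted p = 0.0656), while its odd and even positions differed by -0.05 (adjusted p = 0.521) and its difference with chip and position as terms was -0.15 (adjusted p = 0.604). On chip 3, 6 of the 39 probes were lower and 0 higher, against 8.30% and 7.88% of all tested probes, and at odd positions of chips 1, 2 and 4 there were 9 lower and 1 higher, against 9.97% and 10.2%.

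Of 24 probes of assembly and partner factors, 4 were lower and 2 higher, shares near those of all tested probes, and of 14 probes of citric acid cycle enzymes 0 were lower and 1 was higher. Of 11 probes of regulators of mitochondrial biogenesis, 1 was lower, that of Polg, the mitochondrial DNA polymerase, at -0.15 (adjusted p = 0.0405), and 2 were higher. The larger of these was that of Ppargc1a, the coactivator PGC-1alpha that drives the transcription of respiratory genes, which averaged 9.42 ± 0.32 (SD, n = 20) in treated mice against 9.05 ± 0.27 (SD, n = 12) in controls and differed by 0.37 (standard error 0.10, adjusted p = 0.00834 by limma). It differed by 0.37 on chip 3 (adjusted p = 0.0161) and by 0.37 between chips (adjusted p = 0.00761). On chips 1, 2 and 4 its odd and even positions differed by 0.41 (adjusted p = 0.00212), and with chip and position as terms its difference was -0.04 (adjusted p = 0.965).

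Markers of some of the cells in the section also differed in these comparisons. At an FDR below 10%, 13.5% of all tested probes were lower and 12.1% higher with 32 arrays. On chip 3 these shares were 8.30% and 7.88%. Of 5 probes of cortical excitatory neurons, 3 were lower and 1 higher at an FDR below 10% with 32 arrays, and the mean of the 4 tested genes lay between -0.26 and 0.07 in ethanol-treated mice and between -0.06 and 0.35 in controls. Slc17a7, the vesicular glutamate transporter, differed by -0.26 (adjusted p = 0.00427 by limma) and by -0.46 on chip 3 (adjusted p = 0.00117). On chips 1, 2 and 4 its odd and even positions differed by -0.19 (adjusted p = 0.0471). With chip and position as terms its difference was -0.27 (adjusted p = 0.451). On chip 3, 8 of 13 probes of oligodendrocytes were lower and 1 higher, with group means of -0.20 and 0.17, and 2 of 3 probes of the olfactory bulb, which the dissection was to leave out, were higher, with group means of 0.38 and -0.44. Of the olfactory bulb list, Pcdh21 and Doc2g were among the probes tested and Eomes and Tbx21 were not. Odd minus even positions of chips 1, 2 and 4 gave 0.94 for Pcdh21 (adjusted p = 0.101 by limma), 0.42 for Doc2g (adjusted p = 0.176) and 0.23 for Th (adjusted p = 0.0858). With 32 arrays, 3 of 7 astrocyte, 3 of 6 interneuron and 2 of 5 endothelial probes were higher and 1 of 7 microglial probes was lower, 1 of 13 oligodendrocyte probes was lower and 1 higher, and 0 of the blood, striatal and olfactory bulb probes were called by limma. The part of cell composition in the values of the respiratory genes was not tested.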

How the data were processed

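FCtx mRNA of 32 mice was read on Illumina MouseRef-8 v2.0 arrays. The authors deposited a table that is not normalized, with the intensity of each probe (mean bead signal on a linear scale), a detection p-value, and as other values the bead standard error and bead number; the background step behind them is not given in the sources used here. The authors' processing notes name lumi and limma. As in the Methods, signals were variance-stabilized and quantile-normalized, here with a transform rewritten in R 4.3.3, and tested with limma 3.58.1 with Benjamini-Hochberg adjustment over the 10187 probes detected at p below 0.01 on at least 24 arrays. Figures were drawn in Python 3.11.15 with matplotlib 3.10.9. The presence filter is that of the network analysis of the Methods. Transform and fits were tested on simulated data. A gene with several tested probes is given by its brightest probe, and by the others where they differ in call or sign. Genes were named as the 3 lowest p-values per complex and direction, core subunits, isoform sets and calls on chip 3 or in the difference of differences. Other members named were chosen after their values were seen. The members, lists and tests were chosen with earlier results of these data known. Alternatives were log2 signals, normexp background (offset 16), median scaling, all probes or probes detected on all arrays, chip and position terms, array weights, the wider FDR, and leaving out arrays. No array depth exists beyond the signals, and the number of arrays limits the precision.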

Additional observations from a re-analysis of the deposited data

Results flagged for a closer look

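On chip 3, 68 sets of 4 arrays (34 named probes in both groups) were searched for an array far from the other 3, and chance alone marks about 1 set in 20. In 5 sets the gap to the nearest array, as a share of the range, exceeded the critical value of Dixon's test for 4 values. For Cox6a2 it was 0.963 for ethanol-treated mouse A49 (8.48, the others from 8.27 to 8.28) and 0.851 for control C54 (8.22, the others from 8.31 to 8.33). For probe ILMN_2766580 of Cox4nb it was 0.864 for A46 (8.10, the others from 7.96 to 7.98) and 0.867 for C56 (8.22, the others from 7.965 to 7.999). For Atp5o it was 0.832 for A49 (9.37, the others from 9.25 to 9.27), the array nearest to the controls.

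For 6 probes the ethanol difference on chip 3 departed from that between chips at the same positions at an FDR below 10% by limma. The chip 3 difference minus the other was 0.331 for Uqcr (adjusted p = 0.0217), 0.472 for Cox7b (adjusted p = 0.0273), 0.382 for Atp5c1 (adjusted p = 0.0479), 0.42 for Cox6c (adjusted p = 0.0849), 0.27 for probe ILMN_1254971 of Cox6b1 (adjusted p = 0.0983) and -0.269 for Uqcrc1 (adjusted p = 0.0983).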

How the results depend on the processing

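The 5 members called with 32 arrays became 0 with median scaling, 0 with chip as a fixed block, 1 with chip as a random block, 0 with chip and odd or even position, and 13 at an FDR below 10%. With odd or even position alone as a covariate, 5 members passed an FDR of 1% and 15 passed one of 10%. Of all tested probes, 973 and 2756 did. In that fit Uqcrc1 was higher in ethanol-treated mice, by 0.14 (adjusted p = 0.0129 by limma). The 6 calls on chip 3 ranged from 3 to 6 when each array was left out, with no share of all tested probes given here. Median scaling gave 4 calls between chips (main 21), 0 between positions (main 13), 14 between chips 1 and 2 (main 0) and 0 for the difference of differences (main 6), for which normexp background and keeping every probe gave 3 each.

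Some differences of the 34 named probes changed sign. With median scaling these were Cox6c 0.0292, Sdhc 0.0123, Cox6a1 (ILMN_2605400) 0.0461, Atp5a1 0.0544, Atp5g3 0.0246, Sdhb (ILMN_2769065) 0.0071 and Cox7a2l 0.0008. With chip as a fixed block they were Cox7a1 0.0413, Atp5c1 0.298, Cyc1 -0.0421, Cox6b1 (ILMN_1254971) 0.1108, Uqcrc1 -0.2472, Cox6c 0.1591, Sdhc 0.1201, Cox6a2 0.0311, Atp5a1 0.0802, Cox7b 0.1916, Cox5a 0.0036, Atp5g3 0.131, Sdhb (ILMN_2769065) 0.0375, Atp5f1 -0.0513 and Uqcr 0.0138. With chip as a random block they were Atp5c1 0.0126, Cyc1 -0.0062, Cox6c 0.0071 and Atp5g3 0.0178. With position A to H, or odd or even position, Cox6a1 (ILMN_2605400) became 0.0083. Without control C66, Cyc1 was -0.0079 and Cox4i1 -0.0004. With chip and odd or even position together they were Cox7a1 0.0263, Cox5b 0.0001, Atp5c1 0.1599, Cyc1 -0.0565, Cox6b1 (ILMN_1254971) 0.0604, Uqcrc1 -0.071, Uqcrc2 -0.0419, Uqcrh 0.001, Cox6c 0.2937, Sdhc 0.0539, Cox6a2 0.0561, Atp5a1 0.1963, Cox6a1 (ILMN_2638875) 0.0003, Cox7b 0.2567, Cox5a 0.0084, Atp5g3 0.0295, Cox7a2 0.0259, Cox4nb (ILMN_2766580) 0.0212, Sdhb 0.0336 and 0.1062, Atp5f1 -0.0159, Uqcr 0.0874 and Cox7a2l 0.0391. Of the 6 other tested probes, Atp5h became 0.1243, Atp5j (ILMN_2611261) -0.0582 and Atp5sl 0.0122 with chip as a fixed block, Atp5h 0.0231 with the random block, and Atp5j (ILMN_2962632) 0.0719, Atp5l 0.0439 and Atp5sl 0.1165 with chip and odd or even position. The cause of these changes was not tested. No paired analysis was possible because the groups share no mouse numbers.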
